A study of Mus musculus with 6 samples.

Results

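The Nduf genes encode nuclear subunits and assembly factors of respiratory complex I, and they were read out in inguinal subcutaneous fat pads of mice with and without the transcription factor EGR1. The members were all protein-coding genes whose symbol starts with Nduf, after the deposited Ensembl identifiers had been matched to GENCODE symbols. This rule gave 46 genes of the 47069 gene identifiers in the files, and all 46 passed the filter on low counts, which 17667 genes passed in all. They comprised 36 structural subunits, 8 Nduf assembly factors, and Ndufa4 with its paralog Ndufa4l2. The structural subunits held 7 core subunits, which carry out the reaction, and 29 accessory subunits. The gene Ndufb1 was not analysed here. The symbol prefix also belongs to Ndufa4, whose protein is now regarded as a subunit of complex IV.

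Complex I is the entry point of electrons from NADH into the mitochondrial respiratory chain, and it couples their transfer to ubiquinone with the pumping of protons. Its peripheral arm consists of an N module, which oxidizes NADH, and a Q module, which reduces ubiquinone, while its membrane arm pumps protons through core subunits encoded in mitochondrial DNA. Brown and beige adipocytes are rich in mitochondria, and in them UCP1 lets the proton gradient that the chain builds run down as heat.

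The 3 Egr1+/+ and 3 Egr1-/- libraries each came from 1 female mouse of 2 weeks and of strain C57BL/6 (C57BL/6 J in the study's methods), from total RNA of the inguinal fat pads after depletion of ribosomal RNA. The Egr1 allele carries LacZ in the 5′ untranslated region of the gene and a frameshift ahead of the part that encodes the DNA-binding domain. It is a germline allele, so that Egr1 was inactive in every cell type of these mice and not in adipocytes alone, and both genotypes came from crosses of heterozygous parents, with 1 pair of littermates across the genotypes that is not identified by the labels. The study's methods give fewer litters than mice for these libraries, and the fits did not use the litters. The p-values measure the spread between these mice and treat them as independent. The question asked of the Nduf genes was whether their RNA differed between the genotypes.

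The libraries held 29661984 to 42357981 counts on genes, of which 50.0% to 66.3% were on mitochondrial genes. In each library most of the mitochondrial counts were on the ribosomal RNA gene mt-Rnr2, with 13197831 to 22194802 counts. Levels are given in CPM, counts per 1000000 of the TMM effective library size, which is a library size corrected for composition. Egr1, at chr18:34859823-34864984 on the plus strand of GRCm38, had 10.3, 8.02 and 16.5 CPM in the Egr1+/+ mice and 3.09, 2.71 and 1.84 CPM in the Egr1-/- mice (log2 fold change −2.19, adjusted p = 0.0879 with edgeR's quasi-likelihood test and 3.585e-10 with DESeq2). The adipocyte genes Adipoq, with 551 to 920.2 CPM, and Fabp4, with 2980 to 4200 CPM, were abundant in all 6 libraries. The 12 skeletal muscle markers summed to 1228, 3862 and 237 CPM in Egr1+/+ replicates 1 to 3 and to 115, 401 and 3030 CPM in Egr1-/- replicates 1 to 3. None of the 12 markers was at 0 in all libraries, 10 of the 12 had a lower mean in Egr1-/-, and the genotypes overlapped for all 12.

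The Nduf genes tended to higher RNA levels in the Egr1-/- fat pads, by a small amount that no single gene carried past the threshold. The median log2 fold change of the 46 genes was 0.25, or 1.19-fold, while the median over all 17667 tested genes was 0.00. The log2 fold change was above 0 for 42 of the 46 genes (91.3%), against 50.1% of all tested genes. None of the 46 had an adjusted p under 0.05 with edgeR's quasi-likelihood test, in which 0.017% of all tested genes (3 genes) passed, and their adjusted p ran from 0.305 to 0.987. The 3 genes that passed, named after their values were seen, were Eif3s6-ps2, Gm8822 and Trim67. At an unadjusted p under 0.05, 13 of the 46 (28.3%) were higher in Egr1-/- and 0 were lower, beside 5.06% of all tested genes higher and 5.6% lower. DESeq2 likewise called 0 of the 45 members to which it gave an adjusted p, beside 1.01% of all genes called higher, and the lowest adjusted p of a member was 0.0976 with DESeq2. In bulk tissue, more cells of a type cannot be told apart from more RNA per cell.

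Summed over the 46 genes, the Nduf level was 2652, 2378 and 2377 CPM in Egr1+/+ replicates 1 to 3 and 2996, 2492 and 3579 CPM in Egr1-/- replicates 1 to 3. The means were 2469 ± 159 CPM (SD, n = 3) and 3022 ± 544 CPM (SD, n = 3), and the Egr1-/- replicate 2 mouse lay inside the Egr1+/+ range. As a share of the counts on nuclear genes, the Nduf genes held 0.606%, 0.547% and 0.555% in Egr1+/+ and 0.698%, 0.614% and 0.821% in Egr1-/-. On this scale every Egr1-/- mouse was above every Egr1+/+ mouse, though replicate 2 only narrowly. This scale is not corrected for composition, and the share of all tested genes that separate on it was not computed.

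**Figure D1:**
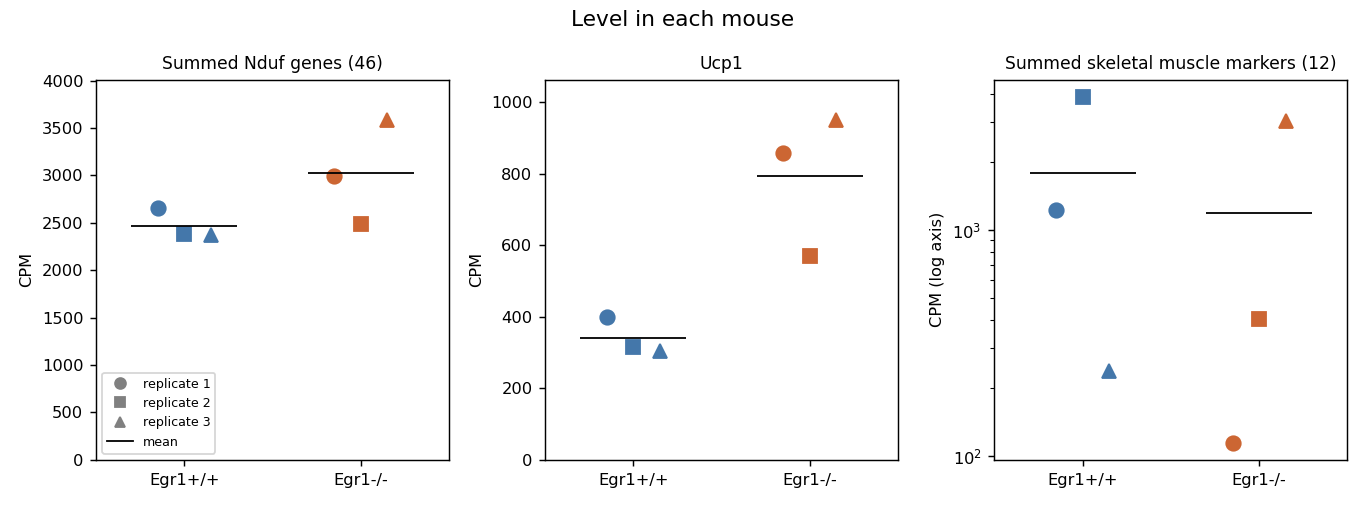
Level in each of the 6 mice (points, with a bar at the genotype mean) of the summed Nduf genes, of Ucp1 and of the 12 summed skeletal muscle markers, in CPM, the last on a log axis. The Nduf sum overlaps between genotypes at 2492 CPM in Egr1-/- replicate 2, Ucp1 does not overlap, and the muscle sum runs from 237 to 3862 CPM in Egr1+/+ and from 115 to 3030 CPM in Egr1-/-.

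The Egr1-/- mice differed among themselves more than the Egr1+/+ mice did. Egr1-/- replicate 3 had the highest level of all 6 mice for 32 of the 46 genes, and Egr1-/- replicate 2 had the lowest level of its genotype for 40 of the 46. The median Nduf gene deviated from the Egr1+/+ mean by 0.07, −0.01 and −0.05 on the log2 scale in Egr1+/+ replicates 1 to 3. It deviated by 0.29, 0.04 and 0.44 in Egr1-/- replicates 1 to 3, where the median of all tested genes deviated by 0.006, 0.010 and 0.002. For 28 genes, Egr1-/- replicates 1 and 3 were both above every Egr1+/+ mouse. The Egr1-/- replicate 2 mouse was above every Egr1+/+ mouse for 10 genes and below every one for 9. The shares of all tested genes with these orders of single mice were not computed, so these counts only describe the mice. Levels in all 3 Egr1-/- mice exceeded all 3 Egr1+/+ mice for 8 of the 46 genes (17.4%), beside 8.15% of all tested genes. The opposite separation was found for 0 of the 46, beside 8.1% of all tested genes.

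**Figure D2:**
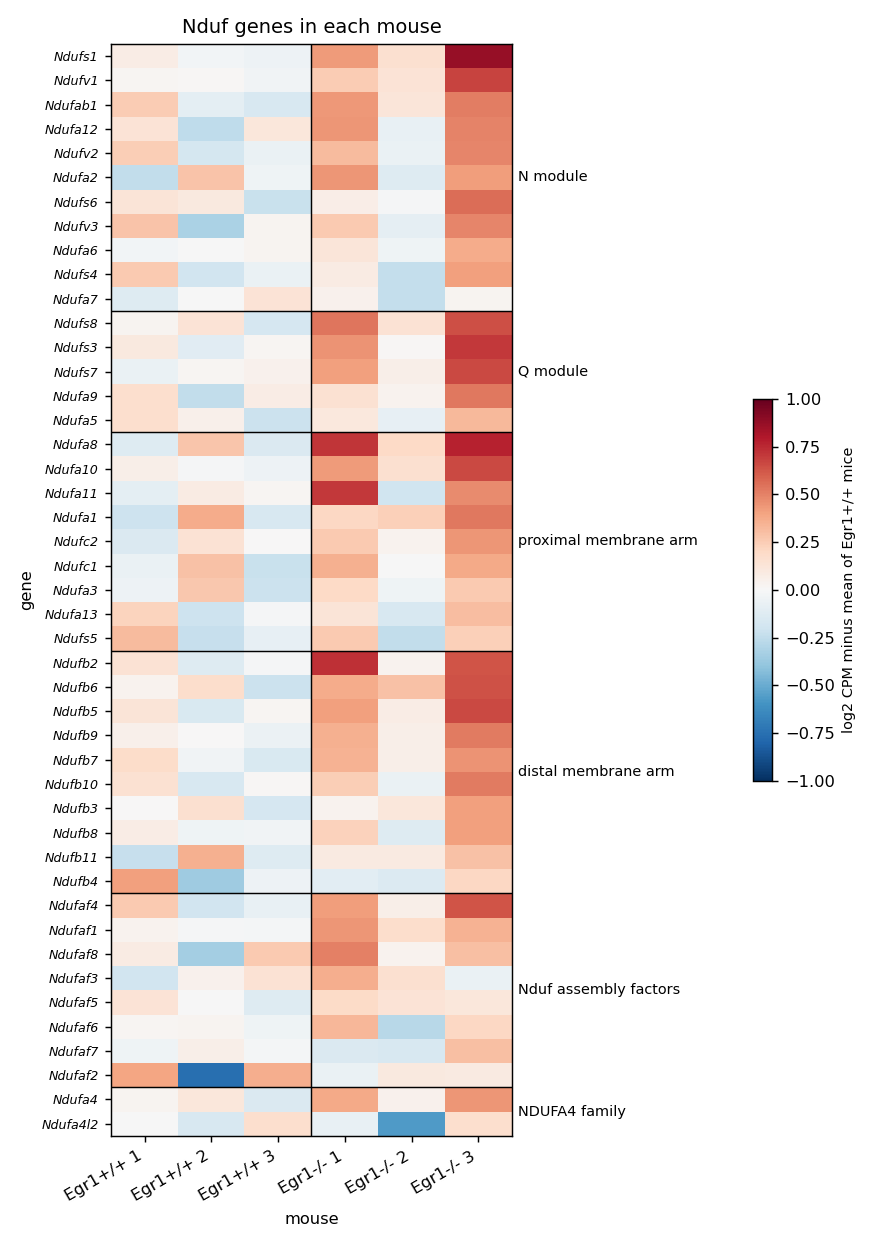
Heat map of 45 of the Nduf genes (rows, grouped by module) in the 6 mice (columns), coloured by log2 CPM minus the mean of the Egr1+/+ mice. Egr1-/- replicates 1 and 3 are red for most genes, and Egr1-/- replicate 2 is pale, with a median of 0.04.

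Egr1-/- replicate 3 also had the second highest muscle marker sum, and Egr1+/+ replicate 2, with the highest, had an Nduf sum of 2378 CPM. With the mean log2 CPM of the muscle markers as a covariate, the median Nduf log2 fold change was 0.28, with 15 genes higher at an unadjusted p under 0.05 (beside 4.56% of all tested genes) and 0 at an adjusted p under 0.05 (edgeR). Without these 2 libraries, a fit chosen after the data were seen, the median was 0.17, with 36 of 46 genes above 0 (beside 52.4% of all tested genes) and 4 higher at an unadjusted p under 0.05 (beside 3.86% of all tested genes). Leaving out Egr1-/- replicate 3 alone gave a median of 0.17 and 1 gene higher at an unadjusted p under 0.05, beside 2.57% of all tested genes. Leaving out Egr1+/+ replicate 3 gave 0.22 and 1 gene, beside 3.14% of all tested genes, so that in both of these fits the Nduf share was below that of all genes. Without Egr1-/- replicate 1 the count was 6, beside 5.7% of all tested genes, and without Egr1-/- replicate 2 it was 24, beside 4.91%, with a median of 0.37. The median stayed above 0 in each of these fits, while the count of genes at an unadjusted p under 0.05 depended on single mice.

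**Figure D3:**
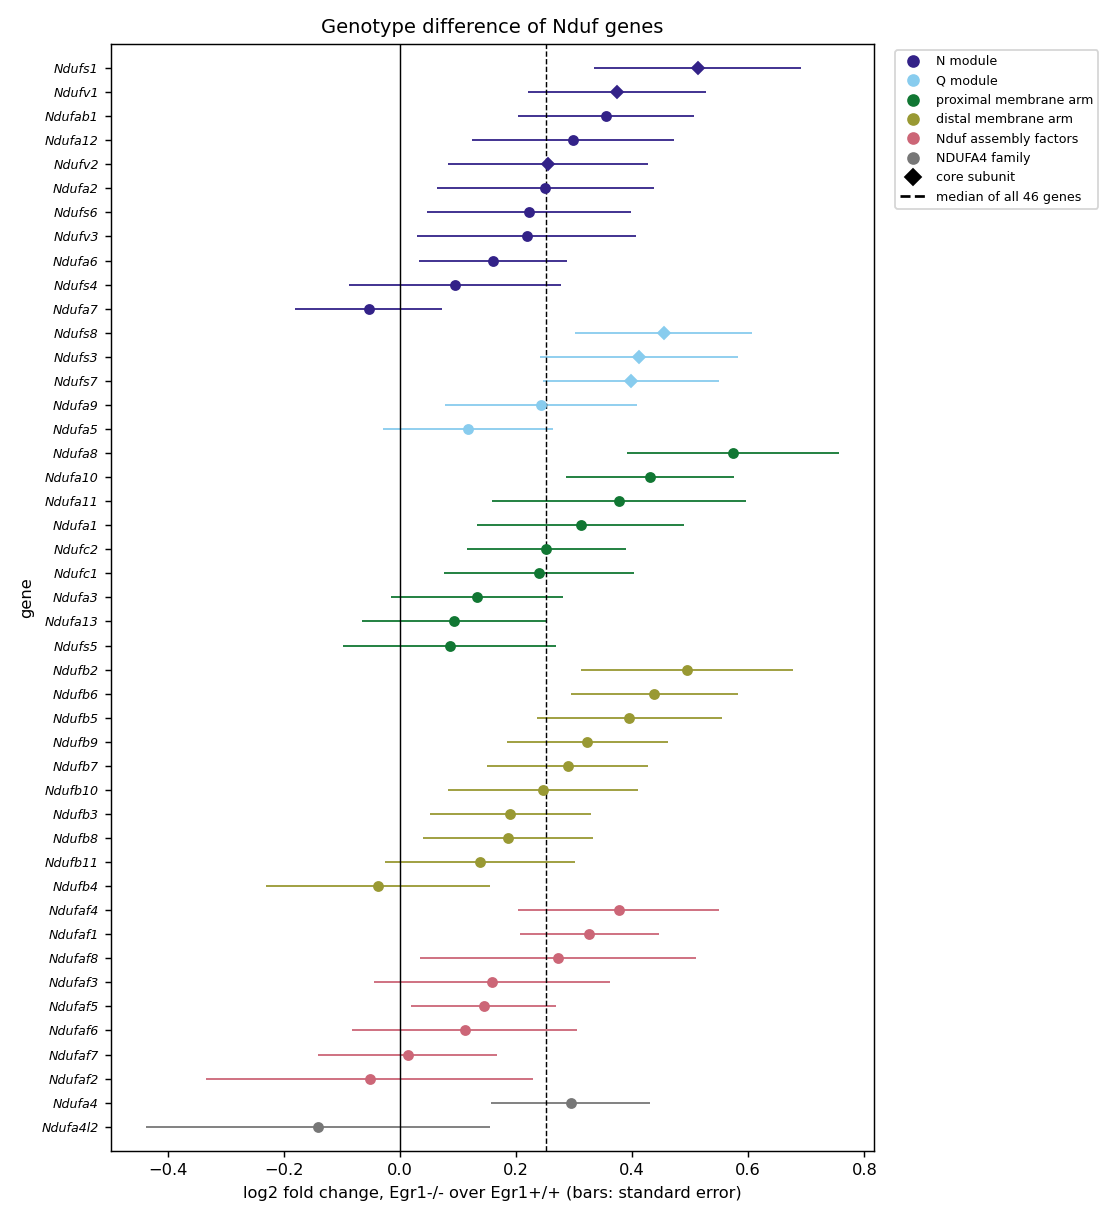
Log2 fold change of 45 of the Nduf genes in Egr1-/- over Egr1+/+ (points; bars, standard error of the quasi-likelihood fit), coloured by module, with diamonds for core subunits and a dashed line at 0.25, the median of all 46. The 6 core subunits drawn lie to the right of 0, and the 4 genes to the left are Ndufa4l2, Ndufa7, Ndufaf2 and Ndufb4.

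The 7 nuclear core subunits, which hold the flavin, the iron-sulfur clusters and the ubiquinone site, all had positive log2 fold changes (beside 50.1% of all tested genes). These ran from 0.25 to 0.51 with a median of 0.40 (1.32-fold). None of the 7 passed the adjusted threshold. At an unadjusted p under 0.05, 5 of the 7 were higher, beside 5.06% of all tested genes. For 4 of the 7 every Egr1-/- mouse was above every Egr1+/+ mouse, beside 8.15% of all tested genes. The median of the 7 was 0.42 with the muscle covariate, 0.24 without Egr1-/- replicate 3, and 0.20 without the library with the most muscle RNA of each genotype.

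Ndufs1 (chr1:63143596-63176833, minus strand), the large iron-sulfur subunit of the N module, had 200.3, 187 and 183 CPM in the Egr1+/+ mice and 255, 212 and 347 CPM in the Egr1-/- mice. Its genotypes did not overlap, and its log2 fold change of 0.51 ± 0.178 (SE) was the highest of the core subunits (adjusted p = 0.344, edgeR quasi-likelihood). This rank rested on Egr1-/- replicate 3, without which the log2 fold change was 0.30 for Ndufs1 and 0.35 for Ndufs8, a core subunit of the Q module. Ndufv1 (chr19:4007384-4012806, minus strand), the subunit that binds NADH and the flavin mononucleotide, had 162, 161 and 156 CPM in Egr1+/+ and 190.2, 176 and 254 CPM in Egr1-/-. The narrow Egr1+/+ values of Ndufv1 were all below the 3 Egr1-/- values, with a log2 fold change of 0.37 ± 0.153. Its partner Ndufv2 (chr17:66078638-66101559, minus strand), another iron-sulfur protein of the N module, had 172, 129 and 139 CPM in Egr1+/+ and 181, 139 and 204 CPM in Egr1-/-. The genotypes overlapped for Ndufv2, with the smallest log2 fold change of the 7, 0.25 ± 0.172.

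In the Q module, Ndufs7 (chr10:80249121-80256794, plus strand), which carries the last iron-sulfur cluster before ubiquinone, had 28.5, 30.2 and 30.7 CPM in Egr1+/+ and 39.7, 31.1 and 47.1 CPM in Egr1-/-. The genotypes did not overlap for Ndufs7, but Egr1-/- replicate 2 was only just above the Egr1+/+ mice (log2 fold change 0.40 ± 0.151). Ndufs8 (chr19:3908863-3912774, minus strand), the other iron-sulfur protein of this module, had 19.2, 20.6 and 16.7 CPM in Egr1+/+ and 27.2, 20.7 and 29.3 CPM in Egr1-/-. The same narrow separation held for Ndufs8, with a log2 fold change of 0.45 ± 0.153 (adjusted p = 0.329, edgeR quasi-likelihood).

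Ndufs3 (chr2:90894634-90904827, minus strand), a core subunit without a cofactor, had 60.3, 52.2 and 57.2 CPM in Egr1+/+ and 77.1, 56.8 and 92.0 CPM in Egr1-/-. Egr1-/- replicate 2 lay within the Egr1+/+ range of Ndufs3, and its log2 fold change was 0.41 ± 0.171.

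The 29 accessory subunits, which surround and stabilize the core, had a median log2 fold change of 0.24, with a range from −0.05 to 0.57. Of these, 27 were above 0 (beside 50.1% of all tested genes) and 0 passed the adjusted threshold. At an unadjusted p under 0.05, 7 were higher, beside 5.06% of all tested genes. By position in the complex, the N module (11 genes with its core subunits) had a median of 0.25 with 10 genes above 0, and the Q module (6 genes) a median of 0.36 with all 6 above 0. The proximal membrane arm (9 genes) had a median of 0.25 with 9 above 0, and the distal membrane arm (10 tested genes) a median of 0.27 with 9 above 0. Without Egr1-/- replicate 3 these medians were 0.13 for the N module and 0.19 for the Q module. They were then 0.18 for the proximal and 0.15 for the distal membrane arm. Without Egr1-/- replicate 2 the N module median was 0.40, and without Egr1+/+ replicate 2 that of the proximal membrane arm was 0.40. Without the library with the most muscle RNA of each genotype, the medians of the N and Q modules were 0.07 and 0.16. Those of the proximal and distal membrane arms were then 0.29 and 0.18. Differences between the modules were not tested.

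The member with the lowest p was Ndufa8 (chr2:36036326-36049406, minus strand), an accessory subunit on the intermembrane space side of the membrane arm. Ndufa8 had 11.2, 14.8 and 11.0 CPM in Egr1+/+ and 20.1, 14.0 and 20.8 CPM in Egr1-/-. Its log2 fold change of 0.57 ± 0.182 (SE) was the highest of the 46 (adjusted p = 0.305, edgeR quasi-likelihood), although Egr1-/- replicate 2 was below Egr1+/+ replicate 2. Ndufb6 (chr4:40270591-40279421, minus strand), of the distal membrane arm, had 16.8, 18.4 and 14.1 CPM in Egr1+/+ and 21.2, 20.1 and 25.51 CPM in Egr1-/-. The genotypes did not overlap for Ndufb6 (log2 fold change 0.44 ± 0.144, adjusted p = 0.321, edgeR quasi-likelihood), and its exons share 257 bases with those of Smim27 on the opposite strand.

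Ndufa10 (chr1:92439010-92473860, minus strand), a matrix-side subunit related to deoxyribonucleoside kinases, had 153, 146 and 142 CPM in Egr1+/+ and 197, 164 and 232 CPM in Egr1-/-. All 3 Egr1-/- mice were above the Egr1+/+ mice for Ndufa10 (log2 fold change 0.43 ± 0.145, adjusted p = 0.328, edgeR quasi-likelihood). Ndufb9 (chr15:58933756-58939488, plus strand), a subunit of the LYR protein family in the distal membrane arm, had 119.6, 116 and 111 CPM in Egr1+/+ and 147.5, 120.1 and 166 CPM in Egr1-/-. Here too the genotypes did not overlap, with Egr1-/- replicate 2 just above Egr1+/+ replicate 1 and a log2 fold change of 0.32 ± 0.138.

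The other accessory subunits at an unadjusted p under 0.05 were Ndufb2 and Ndufb5, of the distal membrane arm, and Ndufab1, the mitochondrial acyl carrier protein, which also serves fatty acid synthesis in the matrix. Ndufb2 had 13.6, 11.3 and 12.2 CPM in Egr1+/+ and 20.5, 12.7 and 19.1 CPM in Egr1-/- (log2 fold change 0.49 ± 0.183). Ndufb5 had 73.0, 60.03 and 67.7 CPM in Egr1+/+ and 88.8, 70.1 and 105 CPM in Egr1-/- (0.40 ± 0.160). Ndufab1 had 36.6, 28.7 and 27.5 CPM in Egr1+/+ and 41.4, 33.4 and 43.8 CPM in Egr1-/- (0.35 ± 0.151). In all of them Egr1-/- replicates 1 and 3 were above the Egr1+/+ mice and replicate 2 was not. Of the accessory subunits that missed this threshold, the positive log2 fold changes ran from 0.09 for Ndufs5 to 0.38 for Ndufa11. Near the lower end stood Ndufs4 (0.09 ± 0.183), whose loss is used as a mouse model of Leigh syndrome, and Ndufa13 (0.09 ± 0.158), also known as GRIM-19. Between these ends, the N module held Ndufs6, a zinc-binding subunit (0.22 ± 0.176), Ndufv3 (0.22 ± 0.189) and Ndufa6, a LYR protein like Ndufb9 (0.16 ± 0.128). In the Q module, Ndufa9, which is related to short-chain dehydrogenases, had a log2 fold change of 0.24 ± 0.165, and Ndufa5 one of 0.12 ± 0.147. In the proximal membrane arm, the log2 fold change was 0.25 ± 0.137 for Ndufc2, 0.24 ± 0.164 for Ndufc1 and 0.13 ± 0.149 for Ndufa3. Ndufa11, of the same arm, had 7.42, 8.42 and 8.07 CPM in Egr1+/+ and 13.1, 6.94 and 11.1 CPM in Egr1-/-, so that Egr1-/- replicate 2 was the lowest of all 6 mice. In the distal membrane arm, the log2 fold change was 0.29 ± 0.139 for Ndufb7, 0.25 ± 0.163 for Ndufb10, 0.19 ± 0.139 for Ndufb3 and 0.19 ± 0.147 for Ndufb8. The genotypes overlapped for each of these genes. The X-linked accessory genes Ndufa1 and Ndufb11 had log2 fold changes of 0.31 ± 0.178 and 0.14 ± 0.164.

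Ndufa2 (chr18:36742332-36744557, minus strand), an accessory subunit of the N module, was the only member within 10 Mb of Egr1, 1883 kb from its start. Ndufa2 had 17.1, 24.7 and 19.7 CPM in Egr1+/+ and 27.4, 18.5 and 27.0 CPM in Egr1-/-. The genotypes overlapped for Ndufa2, and its log2 fold change of 0.25 ± 0.187 was at the median of the 46 genes.

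A pair of accessory genes had negative log2 fold changes. Ndufa7, of the N module, had 23.8, 26.0 and 28.8 CPM in Egr1+/+ and 26.9, 22.2 and 26.6 CPM in Egr1-/- (−0.05 ± 0.126). Ndufb4, of the distal membrane arm, had 31.4, 18.4 and 22.8 CPM in Egr1+/+ and 22.0, 21.5 and 27.3 CPM in Egr1-/- (−0.04 ± 0.193). For both the values of the genotypes were interleaved, and the standard errors exceed the differences.

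The 8 Nduf assembly factors, which help to build complex I and are absent from the finished enzyme, were expressed at lower levels than the subunits. Per kb of the principal transcript, the median Egr1+/+ level was 6.13 CPM for the assembly factors, 54.2 CPM for the structural subunits and 71.4 CPM for the core subunits, and the median of all tested genes was 2.51 CPM. The assembly factors had a median log2 fold change of 0.15, with 7 of the 8 above 0 (beside 50.1% of all tested genes). At an unadjusted p under 0.05, 1 of the 8 was higher, beside 5.06% of all tested genes, and 0 passed the adjusted threshold.

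Ndufaf1 (chr2:119655446-119662827, minus strand), a member of the complex that assembles the membrane arm, had 12.6, 12.2 and 12.1 CPM in Egr1+/+ and 16.7, 13.9 and 15.6 CPM in Egr1-/-. The genotypes did not overlap for Ndufaf1, and both were tight, with a log2 fold change of 0.33 ± 0.119 (adjusted p = 0.372, edgeR quasi-likelihood). Ndufaf4, which acts with Ndufaf3 on the Q module, had 24.7, 18.0 and 19.5 CPM in Egr1+/+ and 27.5, 21.4 and 31.9 CPM in Egr1-/- (log2 fold change 0.38 ± 0.173). Ndufaf3 itself, at 2.82 to 3.57 CPM in Egr1+/+ and 3.07 to 4.17 CPM in Egr1-/-, had a log2 fold change of 0.16 ± 0.204. Only Ndufaf1 among the 8 showed no overlap between the genotypes, beside 8.15% of all tested genes with every Egr1-/- mouse higher.

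Ndufaf5 and Ndufaf7 modify arginine residues of core subunits, and their log2 fold changes were 0.14 ± 0.124 and 0.01 ± 0.154. Ndufaf8, the partner of Ndufaf5, had 2.74, 2.03 and 3.11 CPM in Egr1+/+ and 3.69, 2.65 and 3.20 CPM in Egr1-/- (0.27 ± 0.238). Ndufaf6 had a log2 fold change of 0.11 ± 0.194. Ndufaf2, a paralog of the N module subunit Ndufa12 that leaves the complex late in its assembly, had 7.25, 3.23 and 7.08 CPM in Egr1+/+ and 5.25, 5.88 and 5.85 CPM in Egr1-/-. The Egr1-/- values of Ndufaf2 all lay between the lowest and the highest Egr1+/+ value, and its log2 fold change was −0.05 ± 0.281. Ndufa12 itself had a log2 fold change of 0.30 ± 0.174.

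Ndufa4 had 62.9, 66.7 and 55.9 CPM in Egr1+/+ and 80.1, 63.6 and 83.7 CPM in Egr1-/-, a log2 fold change of 0.29 ± 0.137 with overlap in Egr1-/- replicate 2. Its paralog Ndufa4l2, known as a hypoxia-induced gene, had 1.46, 1.30 and 1.65 CPM in Egr1+/+ and 1.38, 0.97 and 1.65 CPM in Egr1-/-. The genotypes were interleaved for Ndufa4l2, with a log2 fold change of −0.14 ± 0.297, and it had the lowest level per kb of all 46 genes, 1.57 CPM per kb in Egr1+/+. The highest level per kb was that of Ndufb9, with 164 CPM per kb in Egr1+/+ and 205 CPM per kb in Egr1-/-.

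The core subunits encoded in mitochondrial DNA could be set beside the nuclear ones. Of the 7 mt-Nd genes, 6 were tested and all 6 had log2 fold changes above 0 (beside 50.1% of all tested genes). These ran from 0.22 to 0.46 with a median of 0.35, while mt-Nd4l had 0 or 1 counts in each library. The summed mt-Nd level was 19019, 12390 and 9264 CPM in Egr1+/+ and 24388, 14060 and 12734 CPM in Egr1-/-, so that the genotypes overlapped. At an unadjusted p under 0.05, 1 of the 6 was higher, beside 5.06% of all tested genes. The order of the mice differed from that of the nuclear Nduf genes, with Egr1-/- replicate 1 highest and Egr1-/- replicate 3 lowest among the Egr1-/- mice. Mitochondrial genes took 66.3% of all counts in Egr1-/- replicate 1 and 54.9% in replicate 3. Most of these counts fell on the ribosomal RNA gene mt-Rnr2, with 22194802 counts in Egr1-/- replicate 1 and 13274098 in replicate 3. These percentages therefore mainly follow mt-Rnr2 and not the mt-Nd genes. The 8 other complex I assembly factors, such as Ecsit, Foxred1 and Acad9, had a median log2 fold change of 0.16. Of these, 6 of 8 were above 0 (beside 50.1% of all tested genes) and 0 passed the adjusted threshold (edgeR). At an unadjusted p under 0.05, 2 of the 8 were higher, beside 5.06% of all tested genes.

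The nuclear genes of the other respiratory complexes also had positive medians, each above the 0.25 of the Nduf genes. The median log2 fold change was 0.43 for complex II, with 4 of 4 genes above 0, and 0.37 for complex III, with 9 of 9. It was 0.33 for complex IV, with 12 of 13, and 0.28 for complex V, the ATP synthase, with 15 of 16. Of all tested genes, 50.1% were above 0. None of these genes passed the adjusted threshold with edgeR. At an unadjusted p under 0.05, 2, 5, 6 and 3 genes of complexes II to V were higher, beside 5.06% of all tested genes. DESeq2 called 2 genes of complex IV higher, beside 1.01% of all genes. These were Cox5a and Cox8b, named after their values were seen. Cox7a1 and Cox8b also stand in the list of brown and beige markers below. Without Egr1-/- replicate 3 the median was 0.26 for complex II, 0.21 for complex III, 0.24 for complex IV and 0.20 for complex V. Without Egr1+/+ replicate 2 it was 0.51 for complex IV. Without the library with the most muscle RNA of each genotype the median was 0.24 for complex II and 0.21 for complex III. It was then 0.42 for complex IV and 0.17 for complex V. Differences between the complexes were not tested, and all of these genes were read in the same 6 mice.

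**Figure D4:**
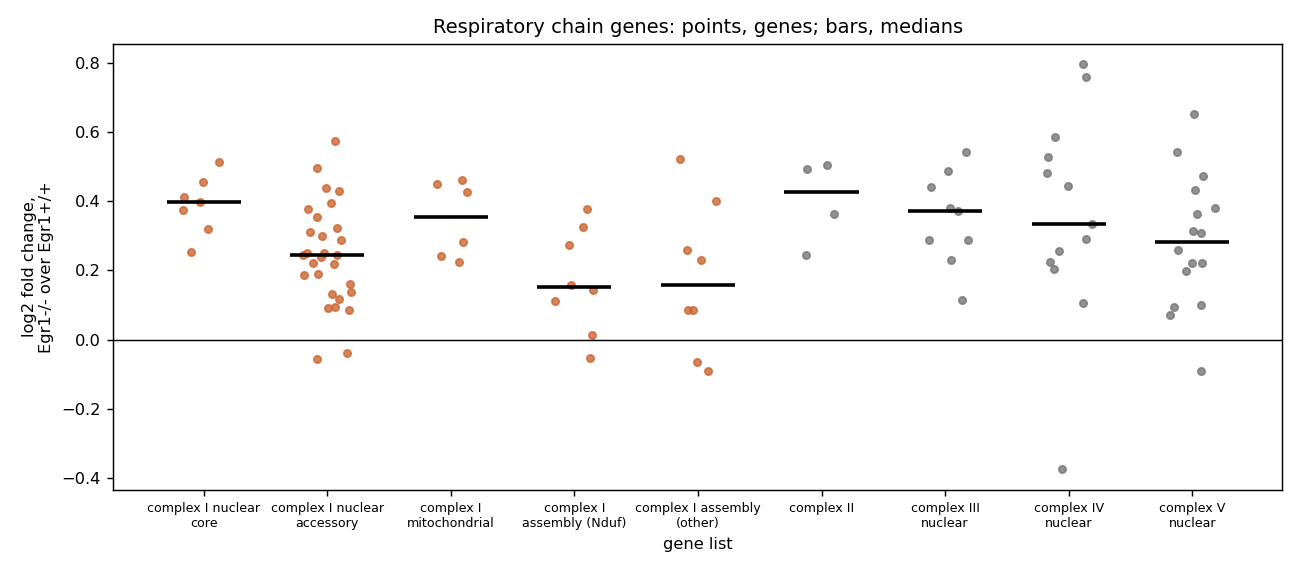
Log2 fold change in Egr1-/- over Egr1+/+ of each tested gene (points; orange, complex I; grey, other complexes) in lists of respiratory chain genes, with a bar at the median of each list. Most points lie above 0, with medians from 0.15 for the Nduf assembly factors to 0.43 for complex II.

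Genes known to control or accompany mitochondrial content were read in the same fit. Ucp1 had 400.3, 316 and 305 CPM in Egr1+/+ and 858, 571 and 949 CPM in Egr1-/-, with a log2 fold change of 1.22 ± 0.207 (adjusted p = 0.151, edgeR quasi-likelihood). Ppargc1a, a coactivator of mitochondrial genes, had 32.1, 19.9 and 36.4 CPM in Egr1+/+ and 58.7, 48.4 and 79.7 CPM in Egr1-/- (1.08 ± 0.244, adjusted p = 0.193, edgeR quasi-likelihood). Esrra, the nuclear receptor through which Ppargc1a acts on many of them, had 16.8, 13.6 and 16.4 CPM in Egr1+/+ and 19.1, 17.7 and 23.3 CPM in Egr1-/- (0.36 ± 0.144). DESeq2 gave an adjusted p of 2.851e-07 for Ucp1, 0.000924 for Ppargc1a and 0.348 for Esrra. None of the 3 overlapped between genotypes, beside 8.15% of all tested genes with every Egr1-/- mouse higher. In the Egr1-/- mice all 3 had the same order as the Nduf sum, highest in replicate 3 and lowest in replicate 2. In the Egr1+/+ mice the Nduf sum was highest in replicate 1 and lowest in replicate 3, as was Ucp1. Ppargc1a was highest there in replicate 3, and both Ppargc1a and Esrra were lowest in replicate 2. The shares of all tested genes with these orders were not computed. Of the 10 mitochondrial gene regulators in the list that holds Ppargc1a and Esrra, 8 were above 0 (beside 50.1% of all tested genes), with a median of 0.16. At an unadjusted p under 0.05, 3 were higher, the third being Ppargc1b (0.92 ± 0.160), beside 5.06% of all tested genes. For the factors whose motifs were searched in the promoters, the log2 fold change was −0.03 ± 0.119 for Nrf1, 0.07 ± 0.106 for Yy1, and 0.16 ± 0.121 and 0.17 ± 0.1501 for the GABP subunit genes Gabpa and Gabpb1. Tfam, the mitochondrial transcription factor, had a log2 fold change of −0.04 ± 0.109, and Tfb1m and Tfb2m had 0.13 ± 0.220 and 0.24 ± 0.177. The genotypes overlapped for each of these but Ppargc1b. For comparison, the 7 tested brown and beige markers had a median log2 fold change of 0.97, the 7 stromal progenitor markers −0.71 and the 8 adipocyte markers −0.17. The part of cell composition in the Nduf values was not tested.

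The promoters of the Nduf genes were searched for motifs of known regulators of respiratory genes and for the EGR1 motif, on both strands of the window from 250 bases before to 50 after the RefSeq start. RefSeq gave 42 such promoters for 40 of the 46 genes. Ndufa2, Ndufa4l2, Ndufaf6, Ndufb9 and Ndufs1 were among those without one. The sequences are shown because they tie the members to the motif letters, and each match describes letters in a window, not a bound site. The GC content was 59.3% at the median for the Nduf promoters and 52.7% for all 32851 mouse promoters of the table. The NRF1 motif GCGCATGCG, of nuclear respiratory factor 1, stood in 4 of the 42 promoters (9.52%, beside 1.75% of all promoters). In the following windows of GRCm38.p6, read 5′ to 3′ on the strand of the gene, capitals mark the motif or its reverse complement, joined where both overlap.
Ndufa8 (chr2:36049331-36049355, minus): gctggagaCGCATGCGCagatggta
Ndufa11 (chr17:56717694-56717719, plus): tgcactgcGCGCATGCGCgcacgcct
Ndufaf4 (chr4:24897962-24897987, plus): agatgtctGCGCATGCGCctgtgcgg
Ndufaf5 (chr2:140170654-140170679, plus): tcccgttgGCGCATGCGCctaataga
The log2 fold changes of these genes were 0.57 for Ndufa8, 0.38 for Ndufa11, 0.38 for Ndufaf4 and 0.14 for Ndufaf5. Ndufa8, the member with the lowest p, held the NRF1 letters directly before its start, at −9 to −1, as the 250 bases upstream (chr2:36049339-36049588, minus strand) show.
Ndufa8 upstream: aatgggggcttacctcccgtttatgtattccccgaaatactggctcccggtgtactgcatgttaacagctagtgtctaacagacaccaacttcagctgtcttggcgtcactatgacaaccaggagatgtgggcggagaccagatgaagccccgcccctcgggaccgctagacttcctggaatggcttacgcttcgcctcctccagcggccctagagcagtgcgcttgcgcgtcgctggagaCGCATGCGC

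The YY1 motif AAGATGGCG stood in 6 of the 42 promoters (14.3%, beside 1.4% of all promoters), each time just after the start. In 5 of the 6 the ATG inside the motif was the annotated start codon of the gene, the exception being Ndufaf8. The windows show the motif in capitals.
Ndufa9 (chr6:126849099-126849123, minus): tgtgggagAAGATGGCGgccgccgt
Ndufaf8 (chr11:120098936-120098960, plus): cagggcccAAGATGGCGgcgccctc
Ndufc1 (chr3:51408917-51408941, minus): tgcggaacAAGATGGCGccgtccgt
Ndufs4 (chr13:114388045-114388067, minus): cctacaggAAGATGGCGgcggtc
Ndufs6 (chr13:73328433-73328457, minus): tcaccggcAAGATGGCGgcggtgct
Ndufs7 (chr10:80249465-80249489, plus): ccgaggccAAGATGGCGgcgctggc
Their log2 fold changes ran from 0.09 for Ndufs4 to 0.40 for Ndufs7. The EGR1 motif GCGTGGGCG stood in 1 of the 42 promoters (2.38%, beside 0.612% of all promoters), that of Ndufaf2, a gene whose log2 fold change was −0.05.
Ndufaf2 (chr13:108158611-108158635, minus): ggagcttaGCGTGGGCGtgtcctcc
The ETS motif CCGGAAGT, read by GABP, stood in the promoter of Ndufs3 alone (2.38%, beside 3.89% of all promoters), and the ESRRA motif TCAAGGTCA in 0 of the 42, beside 0.423% of all promoters. These shares are given as descriptions of letters and were not tested.

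Counts of the members described singly ranged from 30 to 10734 per library. Leaving out genes whose exons overlap those of the member, transcripts of 8 other genes matched 7 members at 95% identity or more over at least 200 bases, and 7 of these 8 copies had at most 5 counts in any library, the highest being 40. By the same measure, overlapping genes on the opposite strand matched 3 further pairings, Mrpl47 with Ndufb5 (up to 536 counts), Smim27 with Ndufb6 (up to 132) and Tssk6 with Ndufa13 (up to 3). For 16 members, exons overlap those of a gene on the opposite strand, and for Ndufb2 and Ndufb8 those of a gene on the same strand, so that their values are uncertain to the extent that the counting split or shared reads there.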

How the data were processed

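Per the labels and the study's methods, the authors made strand-specific libraries from ribosomal RNA-depleted total RNA, mapped the reads with TopHat2 and Bowtie2 to the mouse genome (GRCm38.p4, mm10) and assigned them to genes with featureCounts. They deposited raw read counts per gene, 1 file per mouse. The strand and multimapping settings of the counting are not given in the sources used here. Depth was 29661984 to 42357981 counts per mouse.

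Identifiers without their version were named from GENCODE M21, which matched 46574 of 47069. Counts were fitted in R 4.3.3 with edgeR 4.0.16 (TMM, filterByExpr, quasi-likelihood test), with Benjamini-Hochberg adjustment over all tested genes at 0.05. A standard error is the absolute log2 fold change divided by the root of F. The log2 CPM values used a prior count of 2. Levels per kb used the longest APPRIS principal transcript. Alternatives used DESeq2 1.42.0, limma 3.58.1, other normalizations and filters, a replicate block, a muscle covariate and each mouse left out. Copies were sought with blastn 2.17.0, and promoters and starts came from RefSeq. The fits were tested on simulated data with larger changes than those of the Nduf genes, so the simulation does not cover changes of that size. The members, gene lists and tests were chosen with earlier results of these data known. Named members were the core subunits, the 5 with the lowest p, up to 5 with the most negative fold change, those with the highest and lowest level per kb, Ndufa4, Ndufa4l2, the assembly factors and members within 10 Mb of Egr1; others stand as examples of their group. The values of 1 member are not reported here singly; it stays in the counts and medians.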

Additional observations from a re-analysis of the deposited data

How the results depend on the processing

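No Nduf gene passed the adjusted threshold under any alternative except without a filter on low counts, where 1 did, Ndufa8 (log2 fold change 0.59, adjusted p = 0.0334 with edgeR). In that fit 552 of all 38261 genes passed. Over all genes the 3 calls became 372 with DESeq2, 552 without a filter, 79 with total-count normalization, 6 with the muscle covariate, 1 with limma-voom, 0 with upper-quartile normalization, 0 with a minimum of 10 counts in every library, 0 without the libraries with the most muscle RNA, and 0 to 59 when single mice were left out (59 without Egr1-/- replicate 1). The median Nduf log2 fold change was 0.099 with total-count normalization, which moved the median of all genes to −0.15. With this normalization 33 of 46 Nduf genes were above 0, beside 29.5% of all tested genes. Relative to all genes the difference was then 0.25. The median Nduf log2 fold change was 0.17 to 0.37 when single mice were left out. The log2 fold change was positive in all 18 fits for 31 of the 46 genes. Of the 24 named members, 16 kept their direction in every fit. The reversals were those of Ndufaf7 with limma-voom (−0.0022), with total counts (−0.12) and without the muscle-rich libraries (−0.12), and with total counts those of Ndufaf3 (−0.014), Ndufaf5 (−0.0014) and Ndufaf6 (−0.056). With single mice left out, these ranges crossed 0: −0.15 to 0.097 for Ndufaf7, −0.34 to 0.11 for Ndufaf2, −0.20 to 0.18 for Ndufb4, −0.13 to 0.034 for Ndufa7, −0.32 to 0.046 for Ndufa4l2 and −0.015 to 0.28 for Ndufaf6. The cause was not tested.

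The replicate numbers were not taken to pair the mice: the correlations of the deviations of same-numbered mice were −0.0888, 0.106 and −0.126. Differently numbered mice were not compared, so this check cannot show whether any mice shared a litter. In the blocked fit, which took the replicate number as a term, the median Nduf log2 fold change was 0.25, with 0 Nduf genes and 0 genes in all past the threshold, and it turned the direction of Ndufaf2 (0.024) and Ndufaf7 (−0.00071).

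The widest standard errors, 0.238 to 0.297, were those of Ndufaf8 (61 to 134 counts per library), Ndufaf2 (97 to 305) and Ndufa4l2 (30 to 71). In the main fit no member passed the adjusted threshold, whatever its standard error. Ndufaf1, with the narrowest (0.119) and a log2 fold change of 0.33, had an adjusted p of 0.372 (edgeR quasi-likelihood).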
